A study of Mus musculus with 24 samples.

Results

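Motile cilia are beating, hair-like projections built on a ring of microtubule doublets, and in the brain they are carried by the ependymal cells that line the ventricles and, in tufts, by the choroid plexus epithelium that makes cerebrospinal fluid. Hippocampal neurons carry a single primary cilium, which does not beat and lacks most of the proteins of the motile machinery. Foxj1 is the transcription factor that switches on the motile cilia program, and Ttr (transthyretin) is the most familiar marker of choroid plexus epithelium.

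The 8 cilia-related genes Stk33, Capsl, Lrrc43, Ccdc153, Kif9, Cfap161, Cfap45 and 1700012B09Rik, of 19751 genes with a symbol on the array, were followed through the hippocampus of the offspring of fathers on a methyl donor diet. They were chosen by their measured diet differences on these same arrays, as genes higher in MD F1 and lower in MD F2, so their diet differences are given as a description, without a test. Hippocampal RNA was measured on 24 Agilent one-color arrays in 4 groups of 6, and according to the methods each array carried a pool of 4 mice. CD F1 were offspring of fathers on the control diet (Envigo) and MD F1 were offspring of fathers given the methyl donor diet (3MS ZM) for 6 weeks before mating, which was enriched in methionine (7.5 g), choline (15 g), betaine (15 g), folic acid (15 mg), vitamin B12 (1.5 mg) and zinc (150 mg). CD F2 and MD F2 had grandfathers on these diets. All offspring of both generations ate control diet, and the strain is labelled congenic C57BL/6J x 129S6/SvEv hybrids in F1 and mixed hybrids of the same strains in F2. The labels give an age of 4 weeks in every group and no sex, while the methods call the mice adult. The F2 descriptions also carry a code, lh on 3 arrays of each diet and rh on the other 3, and its meaning is not given in the sources used here.

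Each generation lay on 3 slides of its own each slide holding 2 CD and 2 MD arrays, and the generations were scanned on different days, so a level in F1 cannot be told apart from slide and scan when set against F2. The median intensity of an array ranged from 251 to 318 in CD F1, 167 to 262 in MD F1, 151 to 262 in CD F2 and 148 to 262 in MD F2. Y-linked transcripts minus Xist (log2) ran from -0.69 to 1.71 in F1 and from -7.10 to 6.97 in F2, and the mean was higher in MD than in CD in both generations (0.46 against -0.42 in F1, 4.16 against 1.85 in F2). In F2 it was at -6.85 or lower on 3 arrays (2 CD, 1 MD) and at 4.98 or higher on the other 9, and its part in the F2 differences is given only as a further term in the fit. The 3 arrays MD F1 replicate 6, CD F2 replicate 6 and MD F2 replicate 3 stood apart from the other arrays of their groups, and values without them are given with the results. Markers of hippocampal neurons such as Prox1 and Wfs1 were bright on every array, with a mean log2 signal over 12 genes between 11.59 and 12.12. All values are log2 signals, quantile-normalized within a generation, so they are read between diets and not between genes or generations.

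Some of the 8 genes have a known place in the cilium. Cfap161 and Cfap45 encode microtubule inner proteins, which sit inside the doublets, Ccdc153 encodes a coiled-coil protein of the nexin-dynein regulatory complex, and Kif9 encodes a kinesin of the central pair. Stk33 encodes a serine/threonine kinase, Capsl a calcium-binding protein with EF hands and Lrrc43 a leucine-rich repeat protein, and no role is given here for 1700012B09Rik. Many genes of motile cilia are controlled by Foxj1 and by RFX factors, whose binding sites hold the letters GTTGCC. Promoters were available for 7 of the 8 genes in the RefSeq table (GRCm38.p6, 250 bases before to 50 after the start), and 5 of these 7 held GTTGCC on either strand, against 12.5% of 32851 promoters of that length. The 5 are counted by gene and the 12.5% by promoter, and a gene can have more than 1 promoter, as Kif9 does. None of the 7 matched the X-box pattern searched on both strands, GTTNCC followed within 0 to 3 bases by GGNAAC (0.804% of all promoters). None held the forkhead letters GTAAACA (3.65%). The X-box pattern was a narrow one, and it does not count GTTGCCtAGCAAC in the Lrrc43 stretch below, so looser forms of the X-box are not excluded. A match is a description of the letters and not a binding site. For 4 of the 5 genes a stretch of 100 bases before the start that holds GTTGCC is shown, so that the copies can be compared, with the motif in capitals and read along the gene's own strand (GGCAAC is the same motif on the other strand). The stretch ends at the start except for Ccdc153, where it lies farther upstream.
Lrrc43, chr5:123489225-123489324, plus strand, 1 copy: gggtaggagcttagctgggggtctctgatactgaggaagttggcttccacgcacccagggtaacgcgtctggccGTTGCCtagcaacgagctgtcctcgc
Cfap161, chr7:83794840-83794939, minus strand, 3 copies: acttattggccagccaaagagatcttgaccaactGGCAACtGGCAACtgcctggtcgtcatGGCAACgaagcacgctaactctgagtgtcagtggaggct
1700012B09Rik, chr9:14771031-14771130, minus strand, 1 copy: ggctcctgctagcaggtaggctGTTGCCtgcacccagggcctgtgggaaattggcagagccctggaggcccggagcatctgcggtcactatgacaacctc
Ccdc153, chr9:44240477-44240576, plus strand, 1 copy: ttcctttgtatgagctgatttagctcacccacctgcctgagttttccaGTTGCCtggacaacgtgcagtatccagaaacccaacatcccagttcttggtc
Kif9 held 1 copy, and Capsl and Cfap45 held none in the window.

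All 13 probes of the 8 genes were well above background on all 24 arrays. In F1, all 8 genes (brightest probe of each) were higher in MD F1 than in CD F1, by 0.21 to 0.58 on the log2 scale, with a median of 0.43 beside 0.01 over all probes. All 8 were lower in MD F2 than in CD F2, by 0.09 to 0.63, with a median of -0.44 beside 0.01 over all probes. Both directions are what the choice of the genes fixed. In F1 the diet groups did not overlap for 6 of the 8 genes, and in F2 for 2 of the 8; over all probes, 0.713% had every MD F1 array above every CD F1 array and 0.127% had every MD F2 array below every CD F2 array. Nothing is read from these shares, since the genes were chosen on the same contrasts. Over all probes, limma called 13 of 39429 in F1 (FDR under 0.1, 0.0330%), none in F2 (0.00%) and 5 for a difference of diet effects between generations (0.0127%). The 13 include Stk33, and the 5 include Cfap161 and Ccdc153. Nothing is read from the calls of these genes, which were chosen on the same contrasts. These counts of calls rest on single arrays: leaving out 1 array gave 0 to 152 calls in F1 (152 without MD F1 replicate 6) and 3 to 41 for the difference between generations (41 without CD F2 replicate 6).

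**Figure D1:**
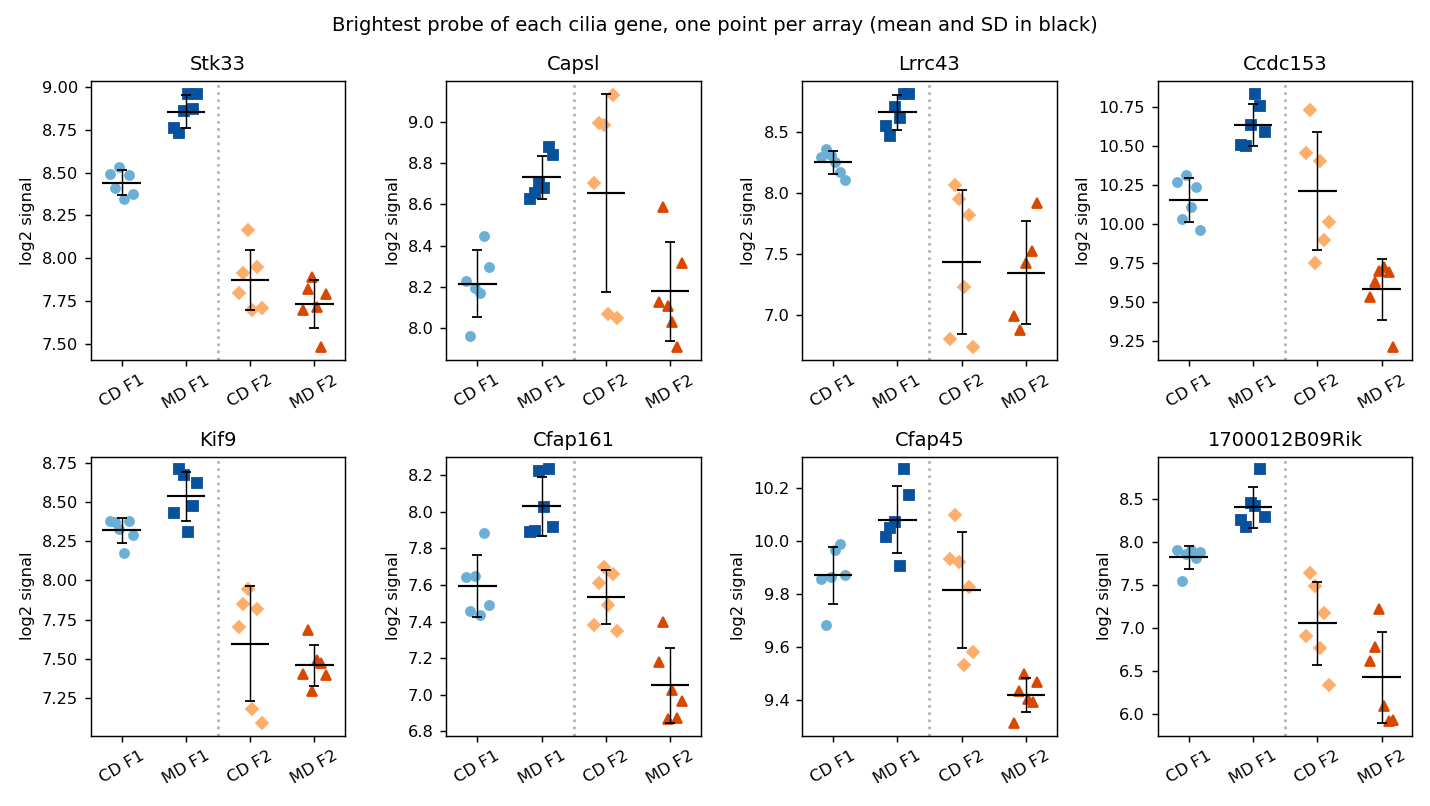
Log2 signal of the brightest probe of each of the 8 genes on every array, by group, with the group mean and SD in black and a dotted line between the generations, which were normalized separately. In F1 the MD arrays lie above the CD arrays for 6 genes without overlap, and in F2 the CD arrays are spread more widely than in F1 for 7 genes, Cfap161 being the exception.

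Ccdc153 was the one of the 8 whose brightest probe did not overlap between the diets in either generation. It lay between 9.96 and 10.32 (median 10.18) on the CD F1 arrays, and the MD F1 arrays covered 10.50 to 10.84 (median 10.61), a difference of 0.48 ± 0.08 (SE, n = 6 arrays per group) or 1.40-fold. It lay between 9.75 and 10.74 (median 10.21) on the CD F2 arrays, and the MD F2 arrays covered 9.21 to 9.72 (median 9.66), a difference of -0.63 ± 0.17. No MD array reached the range of the CD arrays in either generation, and the F2 difference had the same sign on each of the 3 slides (-0.81, -0.50 and -0.58).

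Cfap161 lay between 7.44 and 7.89 on the CD F1 arrays (median 7.57) and between 7.89 and 8.23 on those of MD F1 (median 7.97), without overlap although the ranges meet at 2 decimals, a difference of 0.44 ± 0.10. In F2 it lay between 7.35 and 7.70 on the CD F2 arrays (median 7.55) and between 6.87 and 7.40 on those of MD F2 (mean 7.05), a difference of -0.48 ± 0.10, and 5 of the 6 MD F2 arrays lay below every CD F2 array. Its F2 difference was nearly equal on the 3 slides (-0.45, -0.47 and -0.52). Cfap45, the other inner protein, differed less in F1, at 0.21 ± 0.07, and MD F1 overlapped CD F1. In F2 it ranged from 9.53 to 10.10 in CD F2 and from 9.31 to 9.50 in MD F2, with no overlap and a difference of -0.40 ± 0.09.

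Kif9 is represented by 4 probes, which disagreed in size. Its brightest probe ranged from 8.18 to 8.38 in CD F1 and from 8.31 to 8.71 in MD F1 (0.22 ± 0.07), and from 7.09 to 7.94 in CD F2 and from 7.29 to 7.69 in MD F2 (-0.14 ± 0.16). The other 3 probes differed by 0.35, 0.45 and 0.50 in F1 and by -0.47, -0.55 and -0.61 in F2. All 4 probes therefore had the same direction, with the brightest one showing the smallest difference in both generations.

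1700012B09Rik had the largest F1 difference of the 8. It lay between 7.55 and 7.91 on the CD F1 arrays (median 7.88) and between 8.18 and 8.85 on those of MD F1 (median 8.36), a difference of 0.58 ± 0.11 or 1.50-fold. In F2 it lay between 6.34 and 7.65 on the CD F2 arrays (median 7.05) and between 5.93 and 7.23 on those of MD F2 (median 6.36), a difference of -0.63 ± 0.29, and 3 of the 6 MD F2 arrays fell within the CD F2 range. Capsl ranged from 7.96 to 8.45 in CD F1 and from 8.63 to 8.88 in MD F1 (0.51 ± 0.08, or 1.43-fold), and in F2 its CD arrays split into 4 between 8.70 and 9.13 and 2 at 8.05 and 8.07, which lay within the MD F2 range of 7.91 to 8.59 (-0.47 ± 0.22).

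Stk33 lay between 8.34 and 8.53 on the CD F1 arrays (median 8.45) and between 8.73 and 8.96 on those of MD F1 (median 8.86), a difference of 0.42 ± 0.05 and the smallest spread between arrays of the 8 genes. In F2 it differed by only -0.14 ± 0.09, with CD F2 between 7.70 and 8.17 and MD F2 between 7.48 and 7.89. Its other probe differed by 0.45 in F1 and by -0.28 in F2. Lrrc43 ranged from 8.11 to 8.36 in CD F1 and from 8.47 to 8.81 in MD F1 (0.41 ± 0.07), and its other probe gave 0.45.

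In F2 the direction of Lrrc43 was not settled. It ranged from 6.74 to 8.06 in CD F2 and from 6.88 to 7.92 in the 5 arrays of MD F2 that had a value, since its spot was marked as irregular on MD F2 replicate 2 and left out there, and the difference was -0.09 ± 0.31. With irregular spots kept it was 0.11, and in the authors' processed table it was also 0.11. Its other probe gave -0.04, and its diet difference in F2 was smaller than its standard error.

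**Figure D2:**
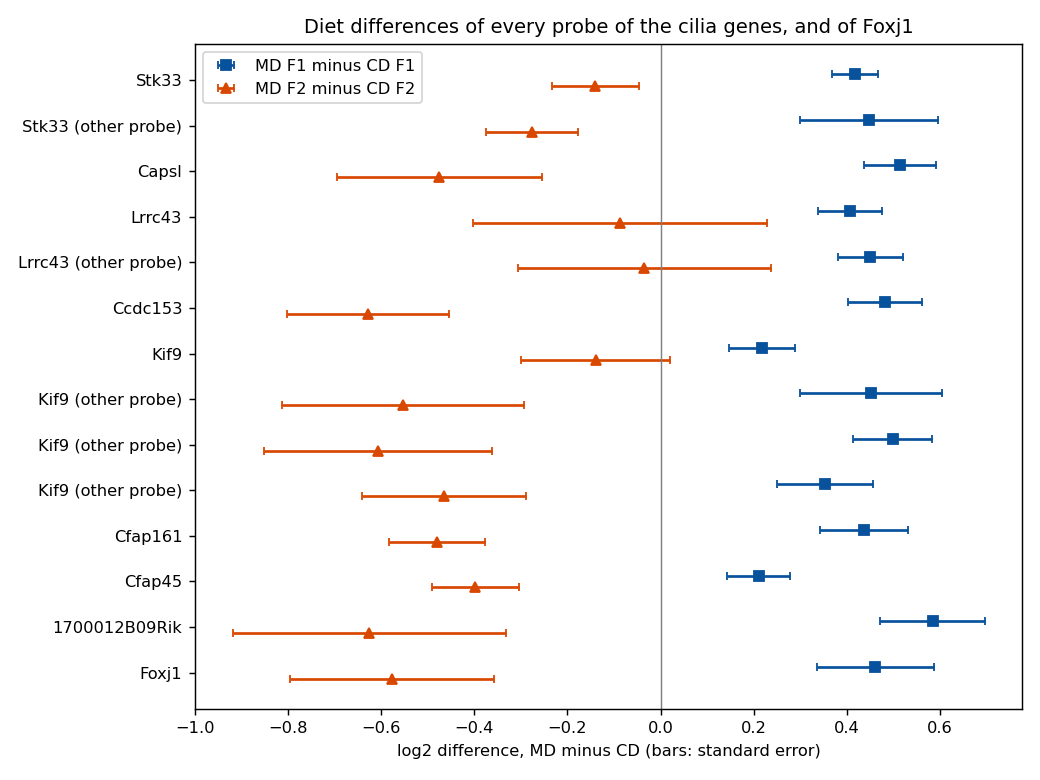
Log2 difference between the diets for all 13 probes of the 8 genes and for Foxj1, MD minus CD, in F1 (squares) and F2 (triangles), with standard errors over 6 arrays per group (5 in MD F2 for the brightest Lrrc43 probe). Every F1 value is above 0 and every F2 value below 0, and most of the F2 bars are wider.

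The spread between arrays was larger in F2 than in F1 for these genes, with a pooled SD within groups of 0.09 to 0.19 in F1 and 0.16 to 0.52 in F2. Choosing the genes by diet differences on these arrays can favor a small spread in F1. Nothing is therefore read from this contrast or from the agreement of the F1 slides. In F1 all 8 genes were higher in MD on each of the 3 slides, whereas in F2 3 of the 8, Ccdc153, Cfap161 and Cfap45, had the same sign on all 3 slides. On the second F2 slide the differences of the other 5 genes were above 0, at 0.10 for Stk33, 0.01 for Capsl, 0.17 for Lrrc43, 0.26 for Kif9 and 0.11 for 1700012B09Rik, and Lrrc43 was also higher in MD F2 on the first slide, by 0.14. Ttr differed in sign between the same slides, by -5.09, 1.77 and -3.66. On the second slide both CD arrays carried the code rh, and on the third both carried lh. The MD arrays of these slides carried both codes, so slide and code cannot be told apart in these differences.

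Foxj1 was not among the genes chosen and was tested with limma over all probes. It lay between 9.57 and 9.99 on the CD F1 arrays (median 9.80) and between 10.07 and 10.69 on those of MD F1 (median 10.11), and lay between 9.89 and 10.98 on the CD F2 arrays (median 10.34) and between 9.42 and 10.27 on those of MD F2 (median 9.77). In F1 every MD array lay above every CD array, and in F2 3 of 6 MD arrays lay below every CD array. The differences were 0.46 ± 0.12 (limma SE, adjusted p = 0.204) in F1 and -0.58 ± 0.21 (limma SE, adjusted p = 0.890) in F2, and their difference was 1.05 ± 0.25 (limma adjusted p = 0.266), so none passed the threshold. It did pass for the difference between generations when the replicate number was blocked (limma adjusted p = 0.0593).

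Ttr varied over a range far wider than any of the 8 genes. It ran from 11.10 to 16.55 in CD F1, from 11.11 to 17.66 in MD F1, from 10.04 to 17.96 in CD F2 and from 10.73 to 17.59 in MD F2. In F1 a single array of each diet (replicate 4 of both) was near 11.1 and the others were at 14.58 or higher. In F2 2 CD arrays and 3 MD arrays were under 12, 2 MD arrays were near 14.2, and the remaining 5 arrays were at 17.46 or higher. The diet differences of Ttr, 0.46 ± 1.19 in F1 and -2.33 ± 1.73 in F2, did not pass (limma adjusted p = 0.873 and 0.925).

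All 15 choroid plexus genes were higher in MD F1 and lower in MD F2, with medians of 0.46 and -1.99 on the log2 scale and none called by limma (0 with an unadjusted p under 0.05 in either generation; smallest adjusted p 0.447 and 0.892). Their mean level ran from 7.98 to 10.63 in CD F1, 8.01 to 11.79 in MD F1, 7.28 to 12.32 in CD F2 and 7.32 to 11.60 in MD F2, and 11 of the 15 were above background on every array. Ttr, Folr1 and Otx2, which define this tissue, were among those 11. In bulk tissue, fewer cells of a type and less RNA per cell cannot be told apart. The 2 arrays of F1 with the lowest choroid plexus level, CD F1 replicate 4 (7.98) and MD F1 replicate 4 (8.01), had means of 8.59 and 9.02 over the 7 cilia genes with a value on every array, which is the same direction as the groups. In F2 the 4 CD arrays with the highest choroid plexus level (11.68 to 12.32) had cilia means of 8.41 to 8.69 and the 2 others 8.02 and 8.16, beside 7.82 to 8.19 in MD F2.

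**Figure D3:**
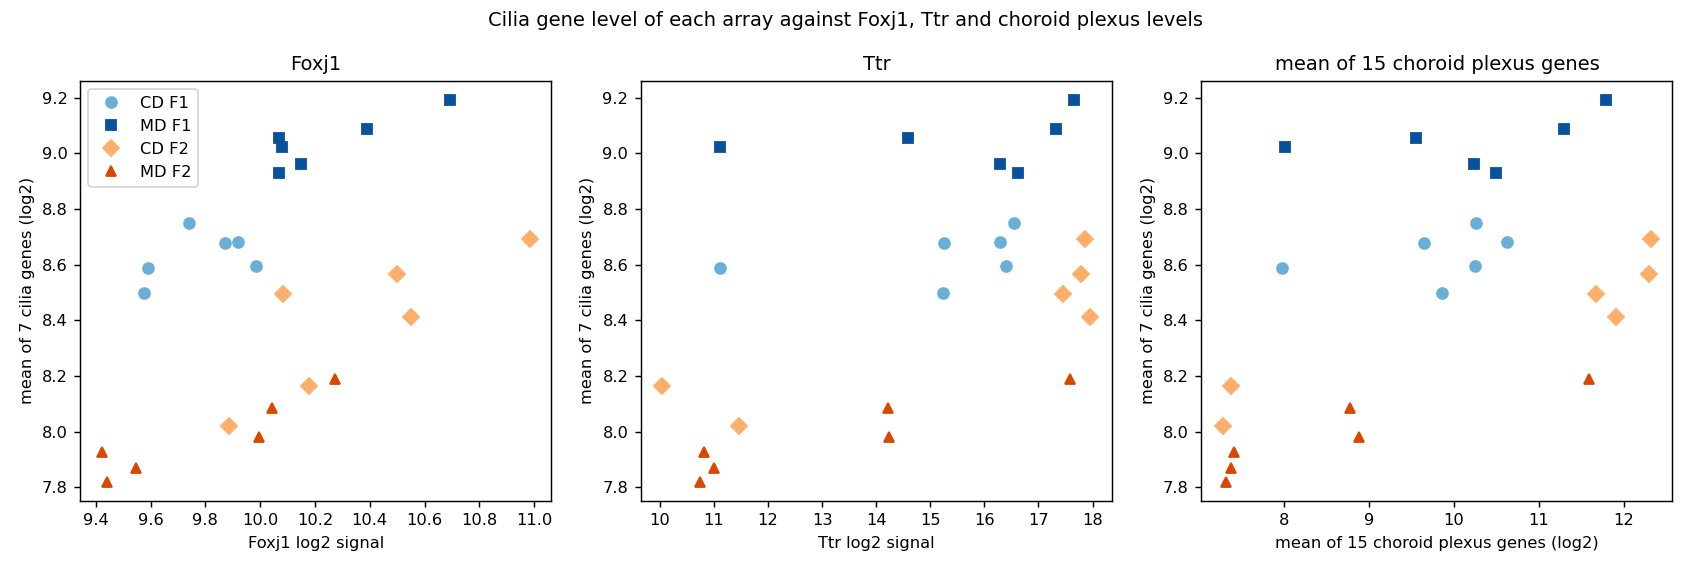
Mean log2 signal of the 7 cilia genes measured on every array (all but Lrrc43) against the log2 signal of Foxj1, of Ttr and of the mean of 15 choroid plexus genes, one point per array, by group. In F1 the MD arrays sit above the CD arrays at every Ttr level. Among the F2 arrays with Ttr under 12, the cilia means are 8.02 and 8.16 in CD and 7.82, 7.87 and 7.93 in MD. The MD F2 arrays with Ttr near 14.2 have cilia means of 7.98 and 8.08. At a Ttr of 17.46 or higher they are 8.41 to 8.69 in CD F2 and 8.19 on the MD F2 array with the highest Ttr.

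The diet differences were fitted again with the Foxj1 or the Ttr level as a further term. In F1 the median of the 8 genes was 0.43 without a further term, 0.30 with Foxj1 and 0.42 with Ttr. In F2 it was -0.44 without, -0.09 with Foxj1 and -0.28 with Ttr. With Foxj1 in the fit, Ccdc153 (-0.43), Cfap161 (-0.34) and Cfap45 (-0.24) kept the larger F2 differences, while 1700012B09Rik moved from -0.63 to 0.01. With Ttr, Ccdc153 stayed at -0.62, and the Ttr term draws a line through arrays that lie at separate levels. Without the 3 arrays that stood apart the medians were 0.42 in F1 and -0.47 in F2, and with the sex measure as a term they were 0.39 and -0.39. Without scaling between arrays the F1 median was 0.10, and Kif9 (-0.10) and Cfap45 (-0.08) were lower in MD F1.

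Variation between arrays of the same diet group was compared with Foxj1 after the group means were taken out. A choice by diet differences can also depend on the spread within groups, so this variation is not wholly separate from the choice. On their brightest probes the correlation was positive for all 8 genes in both generations, with a median Pearson r of 0.38 (range 0.12 to 0.80) in F1 and 0.51 (0.11 to 0.83) in F2, and a median Spearman rho of 0.35 and 0.43. None of the 32 relations computed, 8 genes with Foxj1 and Ttr in 2 generations, passed a Benjamini-Hochberg adjusted p of 0.05 in a permutation test within diet groups. 1700012B09Rik was closest to Foxj1, with r = 0.80 and rho = 0.66 in F1 (12 arrays; permutation p = 0.0101 and 0.0262, adjusted 0.0812 and 0.12) and r = 0.83 and rho = 0.85 in F2 (permutation p = 0.0036 and 0.00275, adjusted 0.0777 and 0.088). Without the 2 arrays farthest from the median of Foxj1 its r was 0.54 in F1 and 0.80 in F2, and with the slide means also taken out it was 0.85 and 0.81. Both genes were lower in the F2 arrays labelled rh, and with the means of the code also taken out in F2, an alternative chosen after the data were seen, its r with Foxj1 was 0.41 (permutation p = 0.34, adjusted 0.634), and the median of the 8 genes was 0.41 with 7 positive. The arrays fell into separate Ttr levels, so no pooled coefficient is given for Ttr. The count of 0 depended on which probes were used. With all 13 probes in place of the brightest, an alternative chosen after the data were seen, 11 of 52 relations passed, 5 with Foxj1 and 6 with Ttr, and these included 1700012B09Rik with Foxj1 in F1 (permutation, adjusted p = 0.0492) and in F2 (adjusted p = 0.0455). Of the other Kif9 probes, 2 passed with Foxj1 in F1 and 1 in F2. The other Stk33 probe had a negative r with Foxj1 in F1 (-0.27, permutation, adjusted p = 0.554). The probes of a gene share its RNA and are not independent.

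Most pairs of the 8 genes, but not all, varied in the same direction within groups. Over their 28 pairs the median r of the group-centred values was 0.33 in F1 (25 pairs positive) and 0.55 in F2 (23 positive), where the 5 negative pairs were all of Ccdc153 (-0.38 to -0.03) and the 3 negative pairs of F1 all of Kif9 (-0.34 to -0.04), beside -0.01 between these genes and all 17954 probes that had a symbol and were above background everywhere. The genes whose brightest probe was most like the mean of the 8 over the 24 group-centred arrays, among 13725 genes, were Cabcoco1 (r = 0.94), Morn5 (0.92), Jhy (0.91), Mlf1 (0.90), Mns1 (0.89), 1700013F07Rik (0.89), Cpt1a (0.89), Spata6 (0.89), Hc (0.89) and Tgfbi (0.88). Of these 10, 4 were in the list of motile cilia genes, as were 17 of the first 50, beside 0.692% of all genes ranked. Foxj1 was 225th (0.70) and Ttr 275th, a rank that rests on arrays at separate Ttr levels. Without the 3 arrays that stood apart, Cabcoco1, Morn5 and Jhy stayed first (0.91, 0.90 and 0.89). There 1700013F07Rik, Tgfbi, Hc and Spata6 ranked 11, 15, 22 and 32. By generation, the r of the 10 genes ran from 0.31 (Spata6) to 0.94 (Mns1) in F1. In F2 it ran from 0.90 (Mns1) to 0.97 (Morn5), so the pooled r can rest mainly on the F2 arrays, as for Spata6.

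Of 128 other genes of the list on the array, 114 had a higher mean in MD F1 and 108 a lower mean in MD F2, and 99 did both (77.3%, beside 22.1% of all probes). None was called by limma in F1, in F2 or in the difference between generations. At an unadjusted limma p under 0.05, 52 were higher in MD F1 and 2 lower (6.96% of all probes were higher), 34 were lower in MD F2 (2.38%) and 64 had a more positive diet difference in F1 than in F2 (3.70%). The F1 count depended on the scaling, with 54 of the 128 under that p in either direction as given, 34 with 75th percentile scaling and 10 without scaling, where 6 were called, 5 of them lower in MD F1. The median difference of the list was 0.22 in F1 and -0.28 in F2, smaller than the medians of the 8 genes, which had been chosen for theirs.

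By role, the median F1 and F2 differences were 0.20 and -0.49 for 16 dynein arm genes, which build the motors of the beat, and 0.27 and -0.24 for 14 genes of the nexin-dynein regulatory complex and the ruler that spaces it. They were 0.22 and -0.23 for 22 genes of microtubule inner proteins and 0.09 and -0.21 for 16 genes of the radial spokes and central pair. The 10 regulators of ciliogenesis were at 0.03 and -0.23, with 5 higher and 5 lower in MD F1. The 9 dynein assembly factors were at 0.22 and -0.02, with 4 higher and 5 lower in MD F2. The remaining 41 genes of the list, grouped under none of these roles, were at 0.28 and -0.40. The largest F1 differences among list genes above background everywhere were those of Dydc2 (0.60 ± 0.21), Mlf1 (0.59 ± 0.18), Cfap91 (0.57 ± 0.15), Fam166b (0.50 ± 0.23) and Spaca9 (0.48 ± 0.22), and their F2 differences were -0.78, -0.89, -1.01, -0.19 and -0.97. The smallest were those of Spef2 (-0.84 ± 0.36), Iqcg (-0.28 ± 0.25), Mcidas and Rfx4 (both -0.14) and Rfx3 (-0.08), with F2 differences of 0.21, 0.21, -0.03, -0.35 and 0.00. Limma adjusted p-values of all 10 were 0.203 or higher in F1 and 0.890 or higher in F2. The Mcidas probe was very bright, with group means of 16.40 to 17.26, and that of Spef2 had group means of 12.13 to 14.22. Whether these probes read only the named gene was not tested, and both count in the medians by role.

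**Figure D4:**
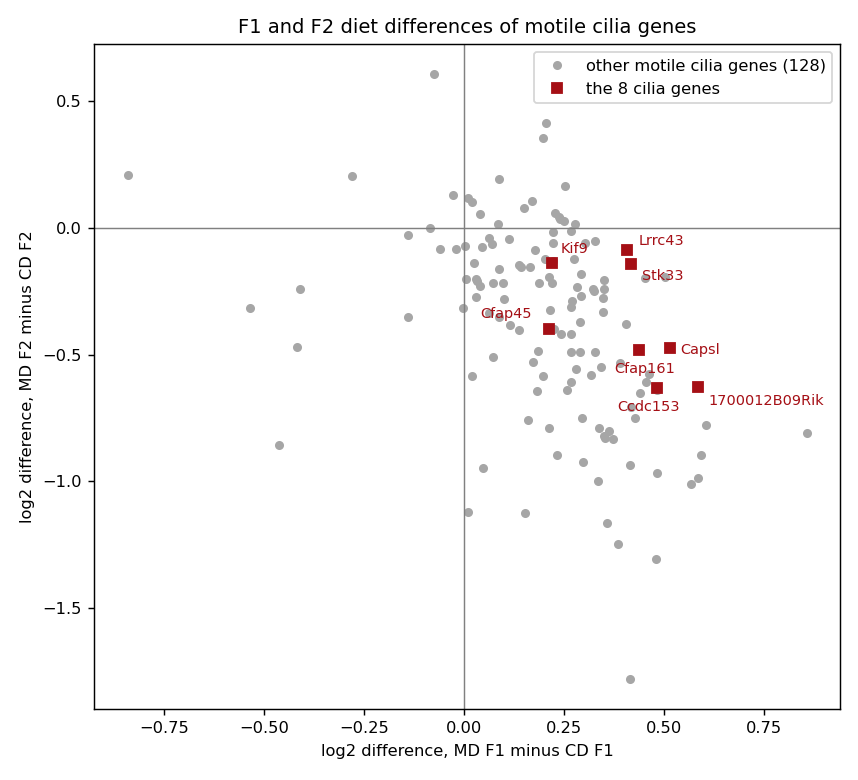
Log2 diet difference in F1 (horizontal) and F2 (vertical) of the brightest probe of 128 other motile cilia genes (grey) and of the 8 genes (red squares). Most points lie to the right of 0 and below 0, and the 8 genes lie among the others in that quadrant.

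A list of 12 ependymal genes left out axoneme genes but shared Foxj1, Tmem212 and Mia with the motile cilia list. The others were Rarres2, S100b, Vim, Gja1, Aqp4, Slc16a12, Hdc, Pltp and Cd24a, and whether they are particular to ependyma in this tissue was not tested. These 12 genes were divided in F1, with 6 higher and 6 lower in MD F1 and a median of 0.05. In MD F2 10 of 12 were lower, with a median of -0.26. Their mean level ran from 10.56 to 10.68 in CD F1, 10.36 to 10.86 in MD F1, 10.44 to 10.82 in CD F2 and 10.19 to 10.55 in MD F2, and all 12 were above background on every array. Genes of the neighboring thalamus (median -0.03 in F1 and -0.05 in F2) and striatum (0.05 and 0.03) and of hippocampal neurons (-0.10 and -0.01) were near 0. None of these genes was called. The part of ependymal or choroid plexus tissue in the differences of the 8 genes was not tested.

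The code of the F2 labels was balanced over diet and was not used in choosing the genes, so rh was tested against lh with limma. It was not balanced over slides, with 2 lh and 2 rh arrays on the first F2 slide, 1 and 3 on the second and 3 and 1 on the third. Both CD arrays were rh on the second slide and lh on the third. With the slide as a block the differences were -0.75 for 1700012B09Rik, -0.59 for Foxj1 and -3.89 for Ttr (limma adjusted p = 0.305, 0.277 and 0.304). Over all probes 10 were called (0.0254%; 0 to 23 with 1 array left out, 23 without CD F2 replicate 3), none of them of the 8 genes. The largest of their differences was that of 1700012B09Rik, at 7.11 ± 0.41 (SD, n = 6 arrays) in lh and 6.37 ± 0.51 in rh (difference -0.74 ± 0.18, limma adjusted p = 0.302). On their brightest probes the other 7 genes differed by -0.33 to 0.11 (limma adjusted p = 0.707 to 0.957), with standard errors of 0.09 to 0.31, which does not show that the codes are alike. The 3 other Kif9 probes differed more, by -0.33, -0.49 and -0.62 (limma adjusted p = 0.639, 0.608 and 0.302). Foxj1 was lower in rh by a similar amount as 1700012B09Rik (-0.63 ± 0.10, limma adjusted p = 0.108). Ttr was at 16.61 in lh and 11.92 in rh (-4.69 ± 1.10, limma adjusted p = 0.302). All 15 choroid plexus genes and 39 of the 128 other motile cilia genes were lower in rh at an unadjusted limma p under 0.05 (3.51% of all probes), and on the brightest probe of each gene none passed the FDR. A dimmer probe of Morn3, one of the motile cilia genes, was among the 10 called (-0.82, limma adjusted p = 0.0814), beside -0.23 on its brightest probe.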

How the data were processed

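Gene expression in hippocampus was measured on 24 arrays (6 for each of 2 diets in each of 2 generations, grouped by the sample titles). The authors' deposited files hold Agilent Feature Extraction intensity values, with version 10.7.3.1 in the file headers; the processed signal is background-subtracted and not scaled between arrays. The deposited table of processed intensity values was an alternative. Irregular spots were left out, and log2 signals were quantile-normalized within each generation, or over all 24 arrays for the comparison of generations, and averaged per probe (39429 probes, 26055 with a symbol through RefSeq accessions, 19751 symbols). Models were fitted with limma 3.58.1 in R 4.3.3 on group means, with Benjamini-Hochberg FDR under 0.1. A gene is given by its brightest probe. An error after ± is the plain SE of the difference for the 8 genes and the SE of limma elsewhere, unless SD is written. Correlations used 100000 permutations within diet groups. Where the brightest Lrrc43 probe had no value on 1 array, that array was left out of its correlations. Fits and correlations were tested on simulated data. The number of arrays limits the precision. Limma p-values set a difference against the spread between arrays, each a pool of 4 mice by the methods, and not between single mice or fathers.

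The 8 genes and the gene lists were chosen with earlier results of these data known. The text names all 8 genes with every probe, Foxj1 and Ttr, the 5 list genes with the largest and the 5 with the smallest F1 difference among probes above background on all 24 arrays, and the 10 genes most like the 8. The deviations of same-numbered arrays correlated from -0.17 to 0.20, above 0.1 for some pairs and not for all, and the labels tie no number to a shared litter or batch, so the arrays were not treated as paired. No sequences of probes or proteins were used.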

Additional observations from a re-analysis of the deposited data

Results flagged for a closer look

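In 40 checks of a gene in a group (the 8 genes, Foxj1 and Ttr in 4 groups), 3 single arrays lay far from the others of their group, and chance alone gives about 1 in 20. Ccdc153 was 9.21 in MD F2 replicate 6, below the other 5 arrays of the group. 1700012B09Rik was 7.55 in CD F1 replicate 2, below the other 5. Ttr was 11.10 in CD F1 replicate 4, below the other 5, which were at 15.23 or higher.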

How the results depend on the processing

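The 8 genes kept their F1 direction under the alternatives run, except without scaling between arrays (Kif9 -0.10, Cfap45 -0.078), where their median was 0.10; it was 0.30 with Foxj1 as a term and 0.41 to 0.46 with 1 array left out. In F2 the median was -0.087 with Foxj1 and -0.48 to -0.37 with 1 array left out. Lrrc43 reversed in F2 in the authors' table (0.11), with irregular spots kept (0.11), with the replicate block (0.039), with Foxj1 (0.021), with Ttr (0.037) and without CD F2 replicate 2 (0.039), CD F2 replicate 3 (0.015), MD F2 replicate 1 (0.0014) or MD F2 replicate 3 (0.030), over a range of -0.23 to 0.039 with 1 array left out. Kif9 reversed in F2 with Foxj1 (0.075) and Ttr (0.020), and 1700012B09Rik with Foxj1 (0.013). The difference of diet differences had a median of 0.36 with Foxj1 and 0.72 to 0.80 with 1 array left out. For the code, the median was -0.41 without scaling and -0.19 to -0.13 with 1 array left out, and Lrrc43 reversed without scaling (-0.082), with normexp (-0.025), in the authors' table (-0.10), with irregular spots kept (-0.10) and without CD F2 replicate 1 (-0.029) or MD F2 replicate 3 (-0.019), over a range of -0.029 to 0.30. Ttr reversed in F1 without CD F1 replicate 4 (-0.35), the low end of a range of -0.35 to 1.36.

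Calls over all probes in F1 (13) were 0 at an FDR of 0.05, with the slide block, the replicate block and the sex measure, 4 with 75th percentile scaling, 7952 without scaling, 5 with normexp on median signals (chosen after the data were seen), 6 with dim probes removed, 73 with all 24 arrays and 152 without the 3 arrays apart, with 0 to 152 when 1 array was left out. In F2 (0 by limma, 2209 at an unadjusted p under 0.05) they were 18 with all 24 arrays and 0 to 1 with 1 array left out. For the difference between generations (5) they were 0 without scaling, 9 with normexp, 12 with dim probes removed, 27 with the replicate block and 22 without the 3 arrays, with 3 to 41 when 1 array was left out. For the code (10) they were 1 at an FDR of 0.05, 3 with 75th percentile scaling, 3 without scaling, 23 with normexp, 4 in the authors' table, 39 with dim probes removed, 0 with the slide block, 2 with the sex measure and 0 without the 3 arrays, with 0 to 23 over the 11 settings that left out 1 array and gave a value.

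Of the other motile cilia genes (0 called), 6 were called in F1 without scaling (1 higher and 5 lower in MD F1) and 1 without the 3 arrays, 0 to 1 with 1 array left out. In F2 1 was called with all 24 arrays, and 0 to 0 with 1 array left out. For the difference between generations 4 were called with the replicate block and 1 without the 3 arrays, 0 to 7 with 1 array left out. Foxj1 passed for the difference between generations with the replicate block (limma adjusted p = 0.0593) and for the code with normexp (0.0684) and with dim probes removed (0.0622), and Ttr passed for the code without CD F2 replicate 5 (0.0770). Correlations that passed (0) were 3 with slide means taken out, 17 without scaling and 11 with every probe, 0 with the code means taken out in F2, and 0 to 0 with 1 array left out. The causes were not tested. The planned normexp needs mean spot signals, a column that the files as given here did not hold, so it could not be run and median signals took its place. No depth can be given for arrays, and 6 arrays per group limit the precision.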
